A study of Homo sapiens with 16 samples.

Results

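The genes described are 7 interferon-induced genes, the MX dynamin-like GTPases MX1 and MX2, the guanylate-binding proteins GBP1, GBP2 and GBP3, and the paired genes SAMD9 and SAMD9L. They were taken by symbol from the 60669 genes of each deposited table, and each symbol matched 1 row in both tables. In the libraries labelled METTL3 knockout, 5 of the 7 (SAMD9, SAMD9L, GBP1, GBP3 and MX1) rose in RNA depleted of ribosomal RNA, where 22.9% of all genes tested were called higher. All 7 were higher in poly(A) RNA by the authors' deposited table, where 9.55% of all genes were. In the wild type 6 of the 7 had 3 reads or fewer in every rRNA-depleted library.

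Interferons are secreted cytokines that act through cell-surface receptors, JAK kinases and STAT factors to switch on a large set of genes that restrict infection. The MX proteins are large GTPases that assemble into rings and bind viral nucleoproteins or capsids: MX1 is known for restricting influenza and other RNA viruses, MX2 for restricting retroviruses and herpesviruses. The guanylate-binding proteins are large GTPases that bind and coat vacuoles and bacteria in the cytosol, and they respond most strongly to interferon-gamma. SAMD9 and SAMD9L are large cytosolic proteins that restrict poxviruses and can slow protein synthesis.

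HMC3 is described as an immortalised line of human microglia, the macrophages of the brain. Of 12 microglia markers, however, 9 were listed at 0 in every rRNA-depleted library, as given below. The libraries were labelled wild type (WT) or METTL3 KO, a knockout of the gene for the catalytic subunit of the enzyme that writes N6-methyladenosine on RNA, with no other treatment named. For rRNA-depleted RNA there were 3 libraries per genotype, made with a directional kit, and for poly(A) RNA 5 per genotype, made with Smart-seq2, all from 100 ng of RNA. Whether the knockout is 1 clone or a pool, and whether replicates are separate cultures, is not given in the sources used here, so p-values measure only the spread between these samples.

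The rRNA-depleted table holds TPM, each gene's share of a library per unit of gene length. With gene lengths from GENCODE 29, 90.9% of the values above 0 were whole reads to within 0.02 reads, which gave depths of 266157 to 487272 reads in the wild type and 512627 to 1267171 in the libraries labelled knockout. For knockout-labelled libraries 1 and 2 a chi-square test of reads found no difference beyond sampling noise at 0.05 (1.02 per degree of freedom over 10117 genes, p = 0.0687), while the other pairs of a label had 1.17 to 1.54 per degree of freedom. These libraries were averaged and counted as 1 sample, leaving 2 knockout-labelled samples against 3 of the wild type. METTL3 mRNA was 25.4 to 31.6 TPM in the wild type and 39.2 to 42.7 TPM in the libraries labelled knockout, with a limma adjusted p of 0.106, so mRNA did not check the label. The authors' deposited table gave METTL3 a log2 fold change of 0.09 with an adjusted p of 0.654. Of 12 microglia markers, 9, among them AIF1, CX3CR1, P2RY12, TMEM119 and PTPRC, were listed at 0 in all 6 libraries, and the 12 together came to 0 to 6.47 TPM in the wild type and 0.532 to 5.24 TPM in the knockout label. Of 9 mesenchymal markers 6 were tested, of which FN1, VIM and THY1 were called higher and COL1A1, COL1A2 and PDGFRB lower, and the 9 summed to 11650 to 14076 TPM in the wild type and 5624 to 5722 TPM in the knockout label. COL1A1 carried that fall: the other 8 summed to 2038 to 2156 TPM and 4826 to 4906 TPM. In the authors' deposited table FN1 was called lower (-0.34) and COL1A2 higher (0.30), opposite to these libraries. Of 4 neuron markers SNAP25 was called higher and RBFOX3 was listed at 0 in all 6 libraries, with sums of 0 to 6.38 TPM and 9.62 to 10.6 TPM. SNAP25 had 0, 0 and 1 reads in the wild type. It lost its call with a pseudocount of 0.1, no filter on low values, thinned reads or wild-type library 1 left out. SNAP25 was also not called without knockout-labelled library 3, which leaves 1 sample in that arm. The authors' deposited table did not call it (0.67, adjusted p 0.1). SYP, too low to be tested, went from a mean of 1.53 to 0.774 TPM. The part of these markers in the members' changes was not tested. These are bulk libraries, in which fewer expressing cells and less RNA per cell cannot be told apart.

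The promoters are shown because 5 members rose together and because interferon acts on such genes through short DNA elements. RefSeq promoter entries on GRCh38.p14 matched 5 of the 7 members: MX1, with 3 start sites, GBP1, GBP3, SAMD9 and SAMD9L. The 300-base windows, 250 bases before to 50 after each start, were searched on both strands for the interferon-stimulated response element, GAAANNGAAA, and the gamma-activated sequence, TTCNNNGAA. Each window is printed 5′ to 3′ on the gene's strand up to 30 bases after the start. Capitals mark a match to either motif, and for MX1 the first start site is shown.
SAMD9 promoter, chr7:93117950-93118229, minus strand: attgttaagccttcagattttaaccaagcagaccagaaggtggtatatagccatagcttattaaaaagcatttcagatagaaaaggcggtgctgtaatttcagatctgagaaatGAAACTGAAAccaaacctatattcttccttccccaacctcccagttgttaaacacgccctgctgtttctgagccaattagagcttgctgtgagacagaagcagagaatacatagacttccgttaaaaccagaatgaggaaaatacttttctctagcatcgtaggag
SAMD9L promoter, chr7:93148356-93148635, minus strand: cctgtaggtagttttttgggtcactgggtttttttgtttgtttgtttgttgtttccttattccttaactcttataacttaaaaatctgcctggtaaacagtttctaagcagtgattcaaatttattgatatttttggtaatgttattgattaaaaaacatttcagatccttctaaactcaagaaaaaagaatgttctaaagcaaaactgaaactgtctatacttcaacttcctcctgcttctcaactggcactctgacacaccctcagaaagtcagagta
GBP1 promoter, chr1:89065179-89065458, minus strand: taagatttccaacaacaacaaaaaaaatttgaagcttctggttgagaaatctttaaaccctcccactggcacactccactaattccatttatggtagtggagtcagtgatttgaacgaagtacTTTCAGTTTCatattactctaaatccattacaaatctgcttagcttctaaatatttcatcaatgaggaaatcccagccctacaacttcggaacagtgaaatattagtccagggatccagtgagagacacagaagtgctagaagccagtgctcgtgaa
GBP3 promoter, chr1:89022837-89023116, minus strand: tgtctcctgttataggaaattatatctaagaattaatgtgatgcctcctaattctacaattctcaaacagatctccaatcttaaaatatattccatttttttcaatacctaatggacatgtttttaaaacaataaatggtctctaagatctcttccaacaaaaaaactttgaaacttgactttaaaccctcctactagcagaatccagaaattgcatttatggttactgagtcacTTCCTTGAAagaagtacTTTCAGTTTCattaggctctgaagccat
MX1 promoter, chr21:41420308-41420587, plus strand: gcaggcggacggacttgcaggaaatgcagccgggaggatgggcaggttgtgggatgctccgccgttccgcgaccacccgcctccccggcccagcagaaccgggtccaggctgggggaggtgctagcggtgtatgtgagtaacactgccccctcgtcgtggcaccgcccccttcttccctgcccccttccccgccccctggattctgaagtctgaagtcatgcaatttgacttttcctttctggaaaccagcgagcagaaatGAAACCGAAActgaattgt

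A response-element match was present for 4 of the 5 members, where 3.57% of all 35116 RefSeq windows and 4.38% of 27305 genes hold one. In SAMD9 it lay on the gene's strand from -136 to -127 relative to the start, and in MX1 from 12 to 21. In GBP1 (-127 to -118) and GBP3 (3 to 12) it lay on the opposite strand. The GBP1 and GBP3 windows as printed share gaagtactttcagtttcat, an unbroken stretch of 19 bases around that match, the longest shared by the windows of any 2 members. A gamma-activated sequence, held by 7.66% of all windows, was present in GBP3 from -15 to -7. In MX1, the second window had no match to either motif, while the third had 1 response-element match and 1 gamma-activated match, which overlap. The SAMD9L window had no exact match to either motif, and near matches were not searched for in any window. A match is a description of letters and not a site shown to be bound.

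MX1 (ENSG00000157601; chromosome 21, 41420304 to 41459214, plus strand, GRCh38) was the member most readily seen in the wild type. It had 7.40, 1.20 and 8.34 TPM in wild-type libraries 1 to 3, from 9, 1 and 12 reads. Under the knockout label its TPM was 31.5, 32.4 and 38.2, with 81, 102 and 51 reads behind these. All 3 knockout-labelled libraries lay above all 3 wild-type libraries, and wild-type library 2, the shallowest, stood below the other wild-type libraries. Its mean went from 5.65 ± 3.88 (SD, n = 3) to 35.1 ± 4.43 TPM (SD, n = 2). On the log2(TPM + 1) scale MX1 rose by 2.69 (SE 0.72), with a limma adjusted p of 0.0381. Pooled over the libraries of a label, the TPM ratio was 5.26, with an exact 95% binomial interval of 3.39 to 8.56 that covers counting error only. The call was lost under 7 of 18 alternatives, among them leaving out wild-type library 1 (limma adjusted p 0.0551) or knockout-labelled library 3 (limma adjusted p 0.248), over a range of 9.67e-06 to 0.248.

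MX2 (ENSG00000183486; chromosome 21, 41361943 to 41409390, plus strand, GRCh38), the neighbour of MX1, was much lower. Its TPM was 1.63, 1.59 and 0.459 in the wild-type libraries, from 3, 2 and 1 reads. Under the knockout label it reached 4.11, 4.83 and 4.95, with 16, 23 and 10 reads. Here too no knockout-labelled library overlapped a wild-type one, but at 1.41 (SE 0.48) the change missed the threshold (limma adjusted p 0.0733). The pooled TPM ratio was 4.04, with a counting interval of 1.73 to 11.5. MX2 passed in 2 alternatives, voom on recovered reads (limma adjusted p 0.0142) and the fit with all 6 libraries as separate samples (limma adjusted p 0.0326), over a range of 0.0142 to 0.246.

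The guanylate-binding genes lie in 1 cluster on chromosome 1. GBP1 (ENSG00000117228; 89052319 to 89065360, minus strand, GRCh38) had 1.42, 4.15 and 3.60 TPM in the wild-type libraries, from 1, 2 and 3 reads. Under the knockout label the TPM of GBP1 was 33.6, 27.98 and 27.2, with 50, 51 and 21 reads. The groups did not overlap, and the lowest knockout-labelled library stood well above the highest wild-type one. GBP1 rose by 2.96 (SE 0.48; limma adjusted p 0.00914), the mean being 3.05 ± 1.44 (SD, n = 3) for the wild type against 28.97 ± 2.55 TPM (SD, n = 2), with a pooled TPM ratio of 10.1 and a counting interval of 4.49 to 27.9.

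GBP3 (ENSG00000117226; 89006666 to 89022894, minus strand, GRCh38), a close relative of GBP1, was listed at 0 in wild-type library 1 and had 2.41 and 1.39 TPM in libraries 2 and 3, each from 1 read. Under the knockout label GBP3 had 35, 51 and 13 reads, equal to 27.3, 32.5 and 19.5 TPM. Library 3 was the lowest of these and still above the wild type. GBP3 rose by 3.65 (SE 0.66; limma adjusted p 0.0126), and the pooled TPM ratio was 24.5, with a counting interval of 6.60 to 205. Without knockout-labelled library 3, which leaves 1 sample in that arm, the limma adjusted p was 0.0911 for GBP1 and 0.0968 for GBP3, the highest over their alternatives, the lowest being 8.75e-06 and 9.25e-07.

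GBP2 (ENSG00000162645; 89106132 to 89150456, minus strand, GRCh38), which also acts at bacterial and parasite vacuoles, was close to absent from this library type. It was listed at 0 in the wild type and in knockout-labelled library 3, and had 1 read in each of knockout-labelled libraries 1 and 2, equal to 0.534 and 0.436 TPM. It was under the filter of 1 TPM in 3 libraries and was not tested, and both groups were at or under 3 reads, so no fold is given. Members of the cluster share sequence. Of all 50-base stretches of the longest transcript, 17.6% of those of GBP2, 13.3% of those of GBP1 and 3.44% of those of GBP3 also occur in a transcript of another gene, such as GBP7, GBP1P1 and one another. Reads from these stretches could have been split or dropped, so the levels of the GBP genes are less certain than those of SAMD9 and SAMD9L, where the share was 0.

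SAMD9 (ENSG00000205413; chromosome 7, 93099513 to 93118023, minus strand, GRCh38) had 5 reads in the 3 wild-type libraries together and 213 in those labelled knockout. It had 2.07, 1.51 and 1.75 TPM in the wild-type libraries, from 2, 1 and 2 reads, against 35.2, 41.95 and 33.9 TPM under the knockout label, from 72, 105 and 36 reads. The libraries within each label were close together and the labels far apart. SAMD9 averaged 1.77 ± 0.279 (SD, n = 3) against 36.2 ± 3.30 TPM (SD, n = 2), and it rose by 3.75 (SE 0.37; limma adjusted p 0.00271). The pooled TPM ratio was 21.1, with a counting interval of 8.89 to 65.6.

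SAMD9L (ENSG00000177409; chromosome 7, 93130055 to 93148369, minus strand, GRCh38), the neighbour and paralog of SAMD9, was listed at 0 in all 3 wild-type libraries. Such a 0 leaves room for up to 3 reads, or 2.98, 4.35 and 2.52 TPM of SAMD9L. Under the knockout label SAMD9L had 26, 31 and 13 reads, equal to 12.2, 11.9 and 11.8 TPM, the most even values of any member. Against 3 reads in each wild-type library SAMD9L was at least 3.63-fold higher, and its fitted change was 3.69 (SE 0.39; limma adjusted p 0.00304). SAMD9 and SAMD9L passed under all 18 alternatives tried. Outside the fit that leaves 1 knockout-labelled sample, the highest limma adjusted p was 0.0102 for SAMD9 and 0.0146 for SAMD9L. For SAMD9L this is a weak check, since its 0 in every wild-type library left no spread there that the alternatives could show. Its fitted change also followed the pseudocount, at 4.63 for 0.5 and 6.91 for 0.1.

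**Figure D1:**
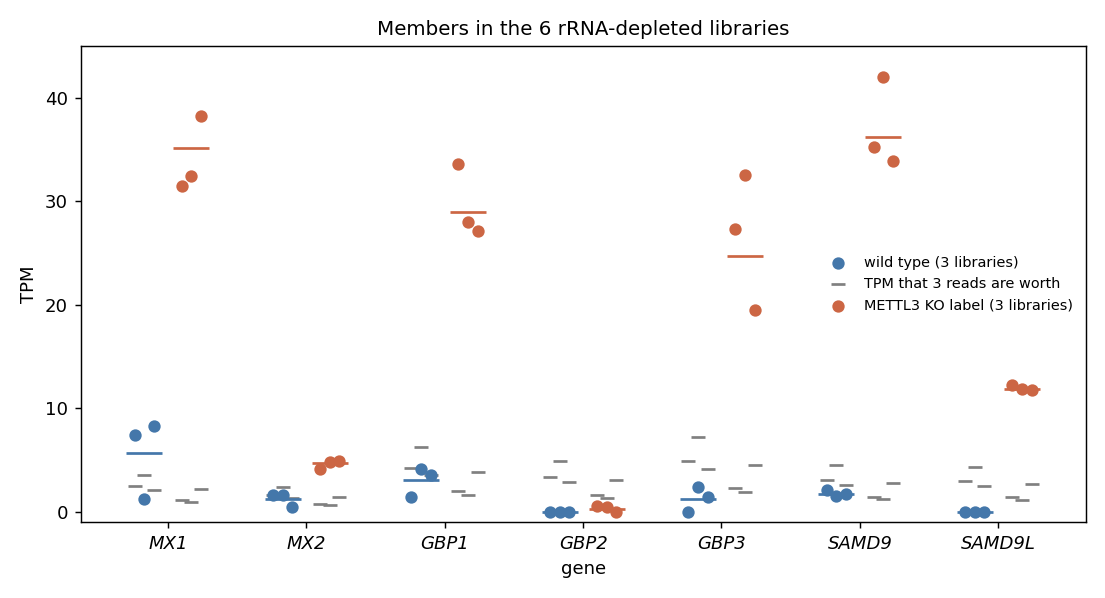
TPM of each member (y axis) in the 3 wild-type and 3 knockout-labelled rRNA-depleted libraries (points, libraries 1 to 3 from left to right), with the mean of the 3 wild-type and of the 2 knockout-labelled samples as coloured lines and the TPM that 3 reads are worth in each library as grey dashes. Outside MX1, every wild-type point lies at or under its grey dash, while 6 members, GBP2 being the exception, lie above it in all 3 knockout-labelled libraries.

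The share of members called was set against all genes. In the rRNA-depleted libraries 5 of the 7 members were called higher and none lower, where 22.9% of the 14789 genes tested were called higher and 12.4% lower (35.3% in either direction). Without knockout-labelled library 3, which leaves 1 sample in that arm, SAMD9 and SAMD9L kept the call and the other members did not. Calls over all genes fell there as well. The changes of the 6 members tested then lay between 1.35 (MX2) and 3.94 (GBP3). Depth moved with the label, and with reads thinned to the shallowest library 4 members were called, MX1 being lost. With these thinned reads 1914 of 14673 genes tested were called higher. Of all calls 64.8% were higher, and 48.6% under median ratio scaling, where MX1 again was lost and the other 4 were called. Under that scaling 2363 of 14789 genes tested were called higher. All 6 members tested had 3 knockout-labelled libraries above 3 wild-type ones, as did 38.4% of all genes tested. MX2, GBP3 and SAMD9L did not pass the filter on the wild-type libraries alone, and SAMD9L, at 0 in all of these, could enter the fit only by differing between the labels. Among the 3714 genes tested with 3 reads or fewer in every wild-type library, 21.1% were called higher. Of 11304 genes at 1 TPM or more in every wild-type library, as were MX1, GBP1 and SAMD9, 23.7% were called higher. The median change of the 6 members was 3.30, or 2.82 with SAMD9L at its bound, against 0.41 over all genes. By size of change the members stood between place 226 (SAMD9) and place 3397 (MX2) from the top. SAMD9, SAMD9L and GBP3 lay within 1 SE of each other, and which of them led changed with the pseudocount, the scaling and the GC trend. With 3 against 2 samples a two-sided exact permutation test cannot go below 0.2, the value each of these 6 genes had.

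The poly(A) comparison asks about the same genes in mature mRNA. The authors' deposited table does not say which genotype is the numerator. Its positive values were read as higher in knockout, since 91.3% of 172 genes other than the members, called in the 2 library types with a log2 change of 1 or more in size, then moved in 1 direction. Of 14009 genes with an adjusted p in the authors' deposited table, 9.55% were called higher and 10.3% lower (19.9% in all). All 7 members were called higher, with a median log2 fold change of 1.71 in the authors' deposited table against 0.02 over all genes.

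Both MX genes were called in poly(A) RNA. The authors' deposited table gave MX1 a log2 fold change of 1.28 (SE 0.15; adjusted p 2.61e-16) at a mean of 108 normalized counts. For MX2 the authors' deposited table gave 1.71 (SE 0.31; adjusted p 1.59e-06) at 23.1 counts. The MX2 change, under the threshold in the rRNA-depleted libraries, was thus past it in the other library type.

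Among the guanylate-binding genes, GBP1 had the smallest error. The authors' deposited table gave it a log2 fold change of 1.61 (SE 0.13; adjusted p 6.46e-31) at 134 counts. GBP3 followed with 1.17 (SE 0.19; adjusted p 1.71e-08) at 51.1 counts in the authors' deposited table. GBP2 had the largest value of any member in the authors' deposited table, 3.86 (SE 1.04; adjusted p 0.0023), on a mean of only 2.69 counts, and its 95% interval ran from 1.82 to 5.90. GBP2 therefore was detected and called higher in poly(A) RNA, where the depth in the rRNA-depleted libraries allowed no comparison.

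The SAMD9 genes were again high. The authors' deposited table gave SAMD9 a log2 fold change of 2.29 (SE 0.24; adjusted p 8.4e-20) at 60.003 counts. SAMD9L had 3.02 (SE 0.34; adjusted p 8.73e-17) at 41.3 counts in the authors' deposited table. Ranked by fold change in the authors' deposited table, GBP2 was at place 16, SAMD9L at 58 and SAMD9 at 145 from the top, while GBP3, the lowest member, was at 748. The changes in the 2 library types are on different scales and their difference was not tested.

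**Figure D2:**
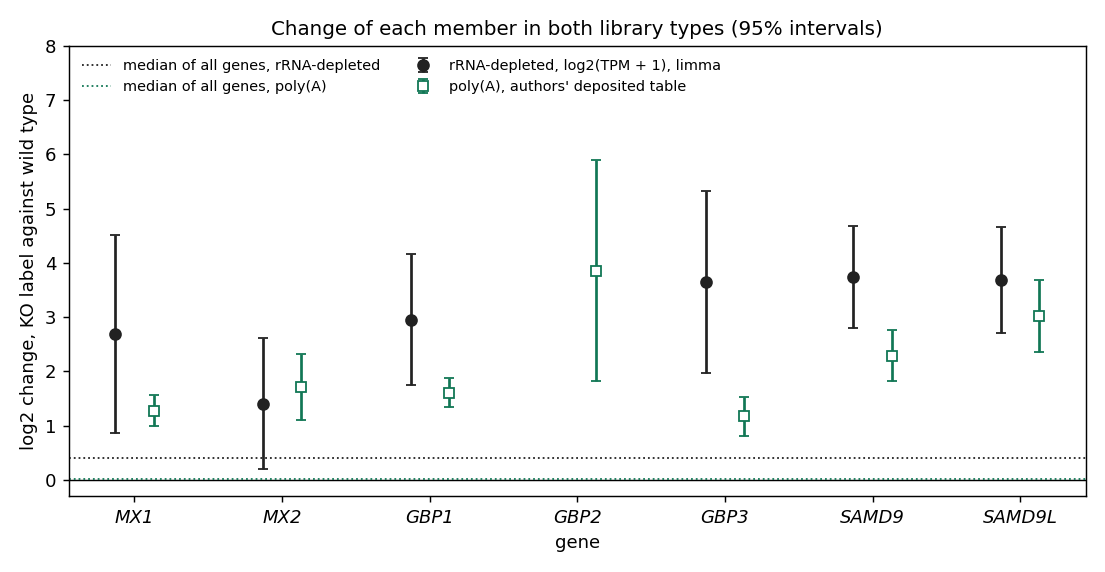
Log2 change of each member (y axis), knockout label against wild type, in the rRNA-depleted libraries (filled circles, limma on log2(TPM + 1)) and in poly(A) RNA (open squares, authors' deposited table), with 95% intervals as bars and the medians of all genes as dotted lines. All points lie above 0, from 1.41 to 3.75 in rRNA-depleted RNA, where GBP2 was not tested, and from 1.17 to 3.86 in poly(A) RNA.

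Levels per unit of length were ordered among the members in the libraries labelled knockout. By the mean over the 3 libraries, SAMD9 (37.0 TPM) led MX1 (34.1 TPM), GBP1 (29.6 TPM) and GBP3 (26.4 TPM). The ranges of each neighbouring pair in this order overlapped, so these 4 were not separated from their neighbours. SAMD9L (11.96 TPM), MX2 (4.63 TPM) and GBP2 (0.323 TPM) followed, and from GBP3 downward no neighbouring ranges overlapped. In the wild type all members but MX1 were at or under 3 reads, and no order is given. These TPM divide by the combined length of all exons of a gene. For MX1 that was 8616 bases against 3470 for its longest transcript, for MX2 13047 against 4064 and for GBP1 4992 against 3035. For SAMD9 (6855 against 6852) and SAMD9L (7135 against 7134) the lengths barely differed. The order between genes therefore depends on the length used, and an order by transcript length was not made.

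Within each pair of relatives, 1 gene led in the MX and SAMD9 pairs but not in the GBP pair. MX1 exceeded MX2 by 7.67-, 6.72- and 7.72-fold in TPM in knockout-labelled libraries 1 to 3. SAMD9 exceeded SAMD9L by 2.88-, 3.53- and 2.88-fold. The counting intervals of all 6 ratios lay above 1, the lowest bound being 1.49 for SAMD9 in library 3. The TPM ratio of GBP1 to GBP3 was 1.23, 0.861 and 1.39, with intervals that all included 1. In poly(A) RNA, mean normalized counts per kilobase in the authors' deposited table, over both genotypes, gave ratios of 7.08 for MX1 to MX2, 1.51 for SAMD9 to SAMD9L and 2.26 for GBP1 to GBP3. All these ratios rest on the combined exon lengths, which exceed the longest transcript most for the MX genes.

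Changes in the rRNA-depleted libraries moved with the GC content of the transcript, and most members are poor in GC. Across 14669 genes, which are not independent replicates, Spearman's rho of change against GC content was -0.37. SAMD9 (36.0% GC), SAMD9L (38.5%), GBP3 (40.0%) and GBP1 (42.8%) lie below the median of 48.5%. The median change of genes in the same GC bin, of 20, was 1.26 for SAMD9, 1.22 for SAMD9L, 1.0 for GBP3 and 0.91 for GBP1. MX2 (48.8%) and MX1 (52.4%) lie in bins with medians of 0.46 and 0.21. Each member's change exceeded the median of its bin. After removal of this trend library by library, the change was 2.99 for SAMD9, 3.05 for SAMD9L, 3.08 for GBP3, 2.54 for GBP1, 3.04 for MX1 and 1.35 for MX2. The same 5 members passed, with limma adjusted p-values of 0.00251 to 0.0299, where 3125 of 14669 genes tested were called higher. In poly(A) RNA, rho was -0.17 over 13948 genes and the bin medians for the 7 members in the authors' deposited table lay between -0.04 and 0.14.

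**Figure D3:**
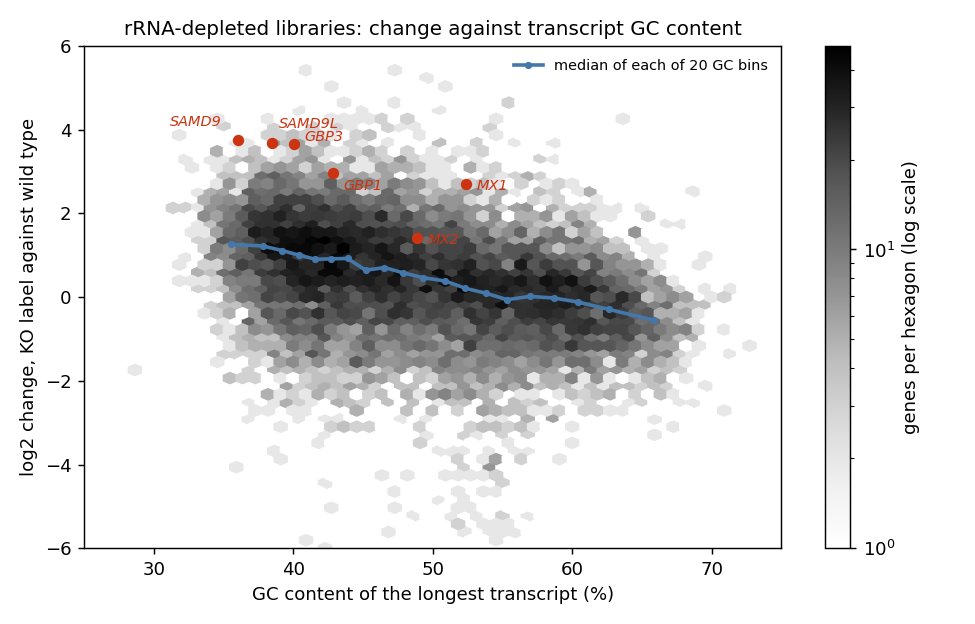
Log2 change in the rRNA-depleted libraries (y axis) against GC content of the longest transcript (x axis) for all genes tested, shown as hexagons shaded by the number of genes on a log scale, with the median of each of 20 GC bins as a blue line and the 6 members tested in red. The bin medians run from 1.26 at the lowest GC content to -0.55 at the highest, and all 6 members lie above them. Changes beyond the axis range are not drawn.

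Other genes of the pathway were taken from ligands to feedback inhibitors. Of 22 genes of interferon signalling 19 were tested in rRNA-depleted RNA, 4 were called higher and 3 lower. These shares are near the 22.9% and 12.4% over all genes and say nothing particular about the list. The interferon genes IFNB1, IFNG and IFNL1 were listed at 0 in all 6 libraries. At these depths 1 read of a gene of 1 kilobase is worth 5.99 to 10.3 TPM in the wild type. Under the knockout label it is worth 2.74 to 6.46 TPM, so a 0 does not exclude low expression. The authors' deposited table gave IFNB1 a mean of 0.288 normalized counts and IFNG and IFNL1 a mean of 0. JAK1, a kinase shared by the type I and gamma receptors, rose by 1.64 (SE 0.30; limma adjusted p 0.0126). The factor STAT2 and the inhibitor SOCS3 were also called higher, at 0.55 and 0.58 (limma adjusted p 0.0441 and 0.0444). Both lost the call under median ratio and 75th percentile scaling, with thinned reads, with no filter on low values and with voom. Both also lost it without any single wild-type library and without knockout-labelled library 3. SOCS3 lost it too under quantile normalization and without knockout-labelled library 1. The highest limma adjusted p over all alternatives was 0.324 for STAT2 and 0.491 for SOCS3.

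The 3 called lower act at or above the receptor. The type I receptor subunits IFNAR1 and IFNAR2 fell by 1.37 (SE 0.25; limma adjusted p 0.0128) and 2.47 (SE 0.30; limma adjusted p 0.00439), and IRF3, which drives interferon genes, fell by 1.14 (SE 0.14; limma adjusted p 0.00425). JAK1, IFNAR1 and IFNAR2 lost their calls without knockout-labelled library 3, at limma adjusted p-values of 0.117, 0.133 and 0.0564, the highest over their alternatives. JAK1, IFNAR1, IFNAR2 and IRF3 kept direction and call under median ratio, 75th percentile and quantile scaling. In poly(A) RNA 9 of 18 genes of this list were called higher and 1, the receptor gene IFNLR1, lower in the authors' deposited table, against 9.55% and 10.3% of all genes. Among those called higher there were JAK1 (0.63, adjusted p 0.000784), STAT2 (0.62, adjusted p 0.00355) and SOCS3 (0.82, adjusted p 0.00457). By log2 fold change, IFNAR1 (-0.05), IFNAR2 (-0.41) and IRF3 (0.29) were not called in the authors' deposited table.

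Relatives of the members that are less studied or not interferon-induced were also examined. Of 6 relatives from the families of interferon-inducible GTPases, not all of them induced themselves, GBP5, GBP6, GBP7 and IRGM were listed at 0 in all 6 rRNA-depleted libraries. GVINP1 was the 1 tested, with a change of 0.29 (limma adjusted p 0.597). GBP4 had 0 TPM in the wild type against 1.09, 1.79 and 0 TPM under the knockout label, too few for a test, but the authors' deposited table gave it a log2 fold change of 4.92 (SE 1.01) at a mean of 3.82 counts. Of 14 dynamin, mitofusin, atlastin and EHD genes, whose proteins remodel membranes, 13 were tested in rRNA-depleted RNA. Of these 7 were called higher and none lower, where 22.9% of all genes tested were called higher and 12.4% lower. The median change of the 13 was 0.49, which is 0.08 above that of all genes. Under median ratio scaling 4 were called higher and 1 lower, where 2363 and 2499 of 14789 genes tested were. By the authors' deposited table, 3 of the 14 were called higher and 1 lower, with a median of 0.05. Over all genes there the shares were 9.55% and 10.3%.

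Genes known mainly as targets of interferon-gamma were seldom detected. Of 8 such genes outside the GBP family, HLA-DRA, CD74, CXCL9, CXCL10 and IRF8 were listed at 0 in all 6 rRNA-depleted libraries, and CIITA and IDO1 were under the filter. WARS1, a tryptophanyl-tRNA synthetase induced by interferon-gamma, was the 1 tested, and it rose by 2.57 (SE 0.23; limma adjusted p 0.00233), its mean being 15.6 ± 2.99 (SD, n = 3) for the wild type against 97.2 ± 16.2 TPM (SD, n = 2). The authors' deposited table gave it a log2 fold change of 0.46 (SE 0.10), also called higher.

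**Figure D4:**
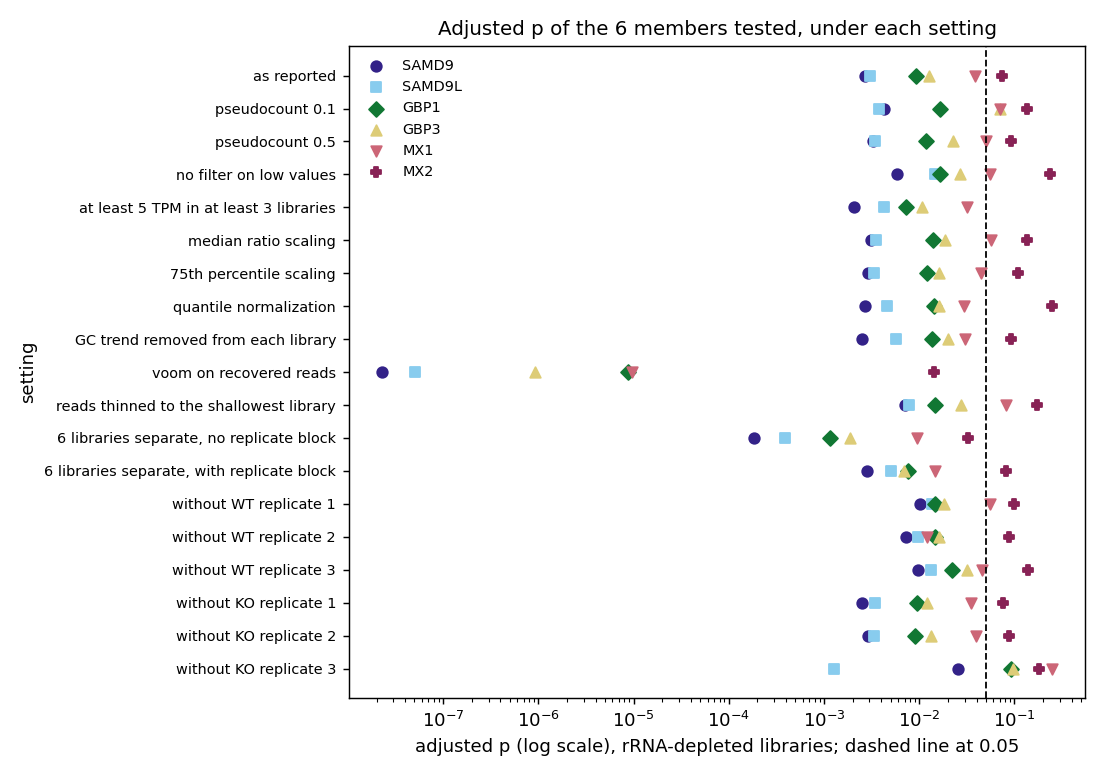
Limma adjusted p (x axis, log scale) of the 6 members tested in the rRNA-depleted libraries, 1 symbol per member, as reported (top) and under each alternative (rows), with a dashed line at 0.05. SAMD9 and SAMD9L lie left of the line in every row, GBP1 crosses it without knockout-labelled library 3, GBP3 crosses it there and with a pseudocount of 0.1, and MX1 and MX2 lie on both sides.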

How the data were processed

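RNA from HMC3 cells was sequenced in 16 libraries of 2 types and 2 genotype labels. Titles gave each sample's group. Trimmomatic, STAR, DESeq2 and the build hg38 are named in the submitters' processing notes; counting tool and annotation are not given in the sources used here. The authors deposited TPM per library for rRNA-depleted RNA and 1 comparison for poly(A) RNA. Per the file headers, that comparison holds a mean normalized count, which is a pooled signal. Its fold change and SE are log2 values as deposited, and the deposited Wald score comes with a raw and an adjusted p-value. That table holds no single library, so it was described and not retested; its 95% intervals were computed from the deposited SE.

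Gene lengths, positions and GC content came from GENCODE 29, which matched 56927 of 60669 identifiers (93.8%). Reads were recovered by dividing TPM times length by its commonest step, and were whole to within 0.02 reads for all members. Libraries of a label were compared by chi-square, using genes with 10 or more reads between them. Genes reaching 1 TPM in 3 or more libraries were tested on log2(TPM + 1), which understates changes of low genes, with limma 3.58.1 in R 4.3.3 (trend; Benjamini-Hochberg over all genes tested; threshold 0.05). Ratios pool reads per label, with Clopper-Pearson intervals at 95% from scipy 1.17.1; these and the limit of 3 reads per library cover counting error only. Other steps used Python 3.11.15, numpy 2.4.6, pandas 2.3.3 and matplotlib 3.10.9.

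Alternatives changed the pseudocount, filter, scaling, GC trend, model, depth, averaging, replicate block and libraries used. The members and lists were chosen with earlier results of these data known. The named genes were all members, METTL3, and from each list those with the smallest adjusted p or listed at 0; for the closing part, genes nearest in pattern and protein-coding genes within 250 kb. CIITA, IDO1, GTF2B, PKN2 and RBMXL1 were named after their values were seen. For 1 gene of the signalling list, values are not reported here.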

Additional observations from a re-analysis of the deposited data

How the results depend on the processing

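In the rRNA-depleted libraries 5 members were called, 3 with a pseudocount of 0.1, 3 at an adjusted p under 0.01, and 2 to 5 when 1 library was left out, the lowest without knockout-labelled library 3. Over all genes 5220 were called, 3332 with reads thinned to the shallowest library, 2242 at an adjusted p under 0.01, and 1663 to 5185 when 1 library was left out, the lowest without knockout-labelled library 3, which leaves 1 sample assumed to vary like the others. No member changed sign under any alternative. Under median ratio scaling 48.6% of calls were higher, against 64.8% as reported, and the median change of all genes was 0.11 in place of 0.41. By the authors' deposited table, 2782 genes were called, 1811 at an adjusted p under 0.01 and 647 with a log2 fold change of 1 or more in size. With a mean of at least 50 counts required, 4 of the 7 members remained in the authors' deposited table (MX1, GBP1, GBP3 and SAMD9), as did 1870 of the 2782 genes.

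Same-numbered libraries did not visibly deviate together (correlations of 0.02, -0.02 and 0.01 for numbers 1 to 3). Since libraries of a label differed by little more than counting noise, these correlations cannot exclude a pairing by number. With the 6 libraries separate and the replicate number as a block, 6037 genes and 5 members were called, against 6880 and 6 without the block.

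Depth limits the wild-type values most: outside MX1 every member had at most 3 reads in each wild-type library, so the size of a fold is known only within the counting intervals given. The cause of the differences between settings was not tested.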

Other observations

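Genes with the most similar profile were found by the root mean square distance of mean-centred log2(TPM + 1) over the 6 rRNA-depleted libraries, among 9861 protein-coding genes with a mean of at least 5 TPM. This is a description in which the difference between the labels carries most of the distance. The gene nearest to SAMD9 was its neighbour SAMD9L, at 0.13, followed by GREM1, a secreted antagonist of bone morphogenetic proteins, and ATG4C, an autophagy protease, both at 0.18. Nearest to SAMD9L were CD44, the hyaluronan receptor, at 0.12, and LY96, a co-receptor of TLR4, at 0.13, with SAMD9 in the third place. CD44 had 26.8 to 29.6 TPM in the wild type and 320 to 321 TPM in the libraries labelled knockout. LY96, like SAMD9L, was listed at 0 in all wild-type libraries and had 9.03 to 11.04 TPM in the libraries labelled knockout. The nearest genes to GBP1 were RRN3, ITGA6 and ZC3H12C, and GBP3 stood at place 182 from it. The nearest to GBP3 were RAB11A, FEM1C and RPAP3, with GBP1 at place 18. The nearest to MX1 were DAZAP2, STK16 and INO80, each with low values in wild-type library 2 as MX1 had, and the nearest member, SAMD9, stood at place 1269.

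The members lie in 3 small clusters, and 13 other protein-coding genes were within 250 kb of one of them. Of these, 4 were further GBP genes and 9 were not. In the rRNA-depleted libraries 6 were tested and 1 was called higher, where 22.9% of all genes tested were. It was KYAT3, near GBP3 and encoding a kynurenine aminotransferase, with a change of 2.31 (SE 0.40, limma adjusted p 0.0112). RBMXL1 (2.64, SE 0.78; limma adjusted p 0.0508) and PKN2 (1.21, SE 0.36; limma adjusted p 0.0527) just missed the threshold, and GTF2B (2.08, SE 0.97; limma adjusted p 0.153) had a larger error. The median change of the 6 was 1.64, against 0.41 over all genes tested. By the authors' deposited table, 7 of the 13 had an adjusted p and 3 were called higher, against 9.55% of all genes. These were GBP4 (4.92), VPS50 (0.60), which lies near SAMD9 and SAMD9L, and KYAT3 (0.43), given as log2 fold changes. FAM3B and HEPACAM2 were listed at 0 in all 6 rRNA-depleted libraries.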
